A study of Mus musculus with 5 samples.

Results

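Mitochondrial ribosomal protein genes were taken as all gene symbols of the form Mrpl or Mrps followed by a number and an optional letter. This gave 78 genes of 27678 in the deposited table, spread over 17 chromosomes in the mouse annotation GENCODE M21. The rule used symbols alone and no measured value. They were compared between dendritic cells from Etv3-/- mice (3 libraries) and from Etv3+/+ mice (2 libraries). Marrow of both genotypes was kept for 6 days in GM-CSF (20 ng/ml) plus IL-4 (5 ng/ml), which drive progenitors to dendritic cells. Live single cells that were CD11c+ and CD115-, with intermediate CD11b and high MHC class II, were sorted from it at over 95% purity. Etv3 belongs to the ETS family of transcription factors. The sources used here do not give the disrupted part of its locus, the age of the mice or whether libraries came from separate animals, so the p-values below rest on a spread between libraries that may be technical.

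The mitochondrial ribosome translates the few messenger RNAs of the mitochondrial genome, which encode core subunits of the respiratory chain and of ATP synthase. Its RNA is mitochondrially encoded, whereas its proteins are encoded in the nucleus, made in the cytosol and imported. The Mrps genes encode most proteins of the small subunit, which binds the messenger RNA and decodes it, and the Mrpl genes most proteins of the large subunit, which forms the peptide bond. Part of these proteins descend from bacterial ribosomal proteins and the rest are specific to mitochondria. Some symbols mislead: the products of Mrps30 and Mrps18a lie in the large subunit, and that of Mrps36 belongs to the alpha-ketoglutarate dehydrogenase complex. By these roles, 26 of the genes encode small subunit proteins, 51 encode large subunit proteins and 1 encodes neither.

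Recovered depth was 42983550 to 68253936 reads per library. Etv3 itself had 18691, 20416 and 22856 normalized counts in Etv3-/- cells and 23050 and 25447 in Etv3+/+ cells, a total over the gene that does not check the disruption. All 12 dendritic cell markers examined were detected in every library, among them Itgax (CD11c) at 10505 to 16076 normalized counts in Etv3-/- cells and 9808 and 10549 in Etv3+/+ cells. Their sum was 2426890, 2434200 and 3228711 in Etv3-/- cells against 1634689 and 1237156 in Etv3+/+ cells, without overlap. Such a sum mainly follows the most abundant markers. By gene, 9 of the 12 had a positive log2 fold change and the others did not (range -0.47 to 1.58), beside 46.3% positive of all tested genes. Of these markers Ciita (limma adjusted p = 0.0380) was called higher. An unadjusted p under 0.05 in limma was found for 5 (41.7%, beside 18.0% of all tested genes). The genotypes did not overlap for 7 (58.3%, beside 36.0%). Of 12 macrophage and monocyte markers C1qa, C1qb and C1qc were called higher, and the list summed to 57011 to 75038 in Etv3-/- cells, against 34528 and 33780 in Etv3+/+ cells. Of that list Fcgr1 was at 0 in Etv3-/- replicate 2 and in both Etv3+/+ libraries. Csf1r, which encodes the CD115 used as a negative gate, had 2403 to 3493 normalized counts in Etv3-/- cells and 1018 and 1348 in Etv3+/+ cells. In markers of neutrophils, B cells, T and NK cells, and mast cells and basophils 0 genes were called by limma. Their sums were 11190 to 63965 in Etv3-/- cells against 40850 and 49124 in Etv3+/+ cells for neutrophils, and 3328 to 5197 in Etv3-/- cells against 2177 and 1651 in Etv3+/+ cells for B cells. For T and NK cells they were 942 to 3333 in Etv3-/- cells against 6037 and 6609 in Etv3+/+ cells, and for mast cells and basophils 7575 to 15021 in Etv3-/- cells against 14473 and 7931 in Etv3+/+ cells. In those lists Ncr1 and Mcpt4 were at 0 in every library. Before adjustment p was under 0.05 in limma for 4 of 6 B cell markers and 2 of 5 tested T and NK cell markers. The same held for 9 of 12 macrophage and monocyte markers, and for 0 markers of neutrophils or of mast cells and basophils. In the same order 4, 3, 9, 0 and 0 markers did not overlap between the genotypes. The sums of the B cell list and of the T and NK cell list did not overlap either. The part of other cells in the values below was not tested.

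No mitochondrial ribosomal protein gene differed between the genotypes past the threshold. All 78 passed the filter on low values, and 0 rose and 0 fell in Etv3-/- cells (limma on log2(normalized count + 1), adjusted p under 0.05 over all 13813 tested genes), where the background was 1.19% of tested genes called, 0.876% higher and 0.319% lower. The lowest adjusted p was 0.152 (limma, Mrpl13). Before adjustment 6 members (7.69%) had p under 0.05, 2 with positive and 4 with negative log2 fold changes. The background for this was 18.0% of all tested genes, 8.02% higher and 9.93% lower. On the recovered reads edgeR called 0 members at an adjusted p under 0.05, beside 0.825% of tested genes higher and 0.319% lower. At the same threshold DESeq2 called 0 members, beside 4.60% higher and 3.86% lower. In bulk libraries such as these, fewer cells of a type and less RNA per cell cannot be told apart.

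Estimated differences were under 2-fold throughout. The median log2 fold change was 0.12, with the middle 50% of genes between -0.05 and 0.29, beside a median of -0.06 and a range of -0.58 to 0.37 for the middle 50% of all tested genes. The log2 fold change was above 0 for 50 of the 78 genes (64.1%, against 46.3% of all tested genes), and under 0.5 in size for 64. For 55 genes (70.5%, against 28.9% of all tested genes) the 95% interval lay wholly within a 2-fold change either way. For the others, among them the 12 with the highest and lowest estimates named below, the interval reached past 2-fold. Fold changes on this scale slightly understate the change of low genes, and low genes have wider intervals, so the background of all tested genes, with a median of 1013 normalized counts against 1967 here, is not matched in level.

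**Figure D1:**
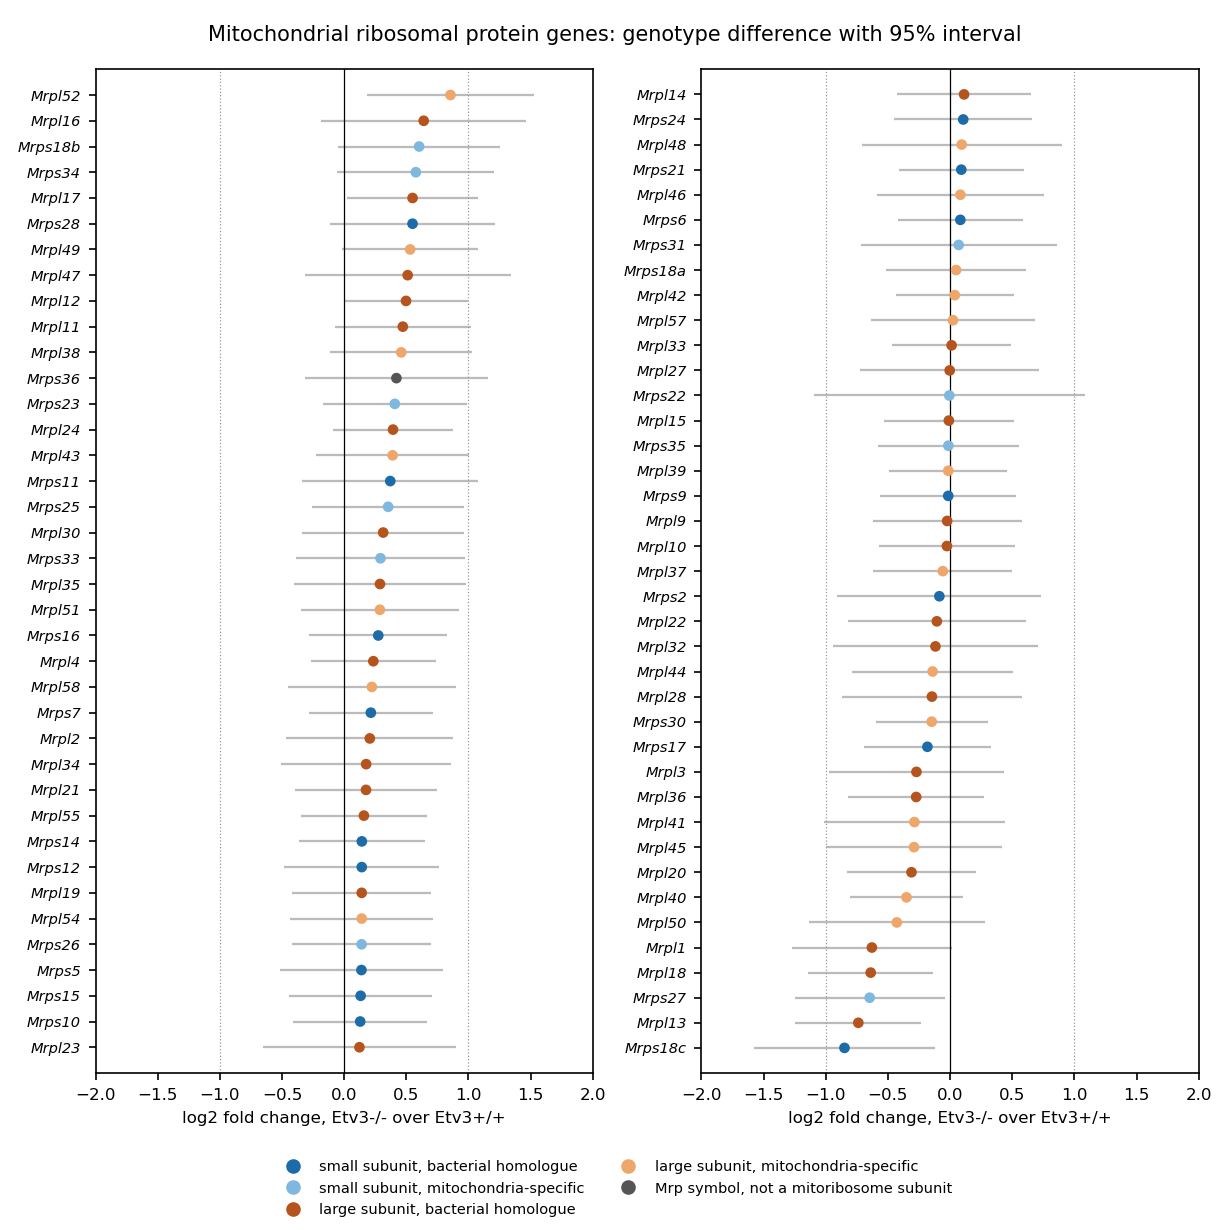
Log2 fold change of 77 mitochondrial ribosomal protein genes, Etv3-/- over Etv3+/+, with 95% intervals from limma as horizontal lines and colour for the role of the protein; dotted lines mark a 2-fold change. Estimates run from 0.86 for Mrpl52 to -0.85 for Mrps18c, and all lie inside the dotted lines. Mrpl53, with the lowest counts, is left out because its interval (-1.79 to 3.05) is wider than the axis.

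As a sum, the 78 genes held 0.335%, 0.311% and 0.355% of each library's normalized counts in Etv3-/- cells (replicates 1 to 3), against 0.329% and 0.290% in Etv3+/+ cells. The groups overlapped, and the lowest share was in Etv3+/+ replicate 2 and the highest in Etv3-/- replicate 3. Small subunit genes took 0.106% ± 0.00469 (SD, n = 3) in Etv3-/- cells and 0.0975% ± 0.00811 (SD, n = 2) in Etv3+/+ cells. Large subunit genes took 0.226% ± 0.0171 (SD, n = 3) in Etv3-/- cells and 0.211% ± 0.0189 (SD, n = 2) in Etv3+/+ cells. The ratio of the small subunit sum to the large subunit sum was 0.467 ± 0.0156 in Etv3-/- cells and 0.462 ± 0.00297 in Etv3+/+ cells. The ratios of the genotypes overlapped.

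The same libraries stood out gene by gene. Etv3-/- replicate 3 held the highest value of 32 of the 78 genes and Etv3+/+ replicate 2 the lowest value of 28. The median deviation from each gene's mean over the 5 libraries on the log2 scale reached 0.16 for Etv3-/- replicate 3 and -0.14 for Etv3+/+ replicate 2, against -0.0017 to 0.0065 in Etv3-/- replicates 1 and 2 and -0.0063 in Etv3+/+ replicate 1. Across all tested genes, the deviations of these libraries also had the strongest trends with GC content, with a Spearman correlation of 0.39 in Etv3-/- replicate 3 and -0.41 in Etv3+/+ replicate 2. Among the 39 members with GC content above the members' median, the median deviation in Etv3+/+ replicate 2 was -0.20, and among the other 39 it was 0.04. The part of GC content in the direction of single genes was not tested. A positive log2 fold change was found for 21 of the GC-poorer 39 and 29 of the GC-richer 39.

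**Figure D2:**
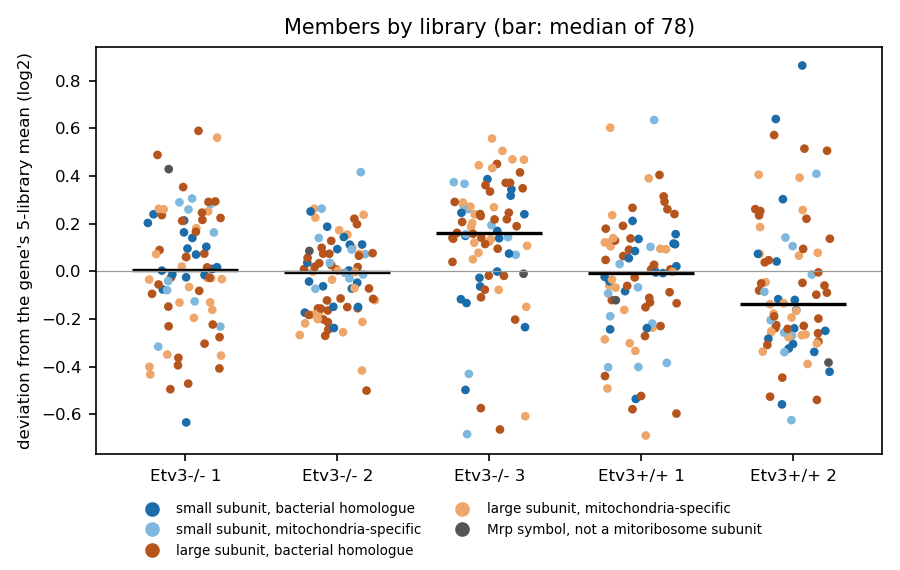
Deviation of each of the 78 genes from its mean over the 5 libraries (log2 scale, 1 point a gene, coloured by role), with the median of each library as a black bar. The median is 0.16 for Etv3-/- replicate 3, -0.14 for Etv3+/+ replicate 2, and close to 0 in the other libraries.

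By role, the small subunit genes with a bacterial homologue had a median log2 fold change of 0.13 (12 of 16 positive) and the mitochondria-specific ones 0.22 (7 of 10 positive). In the large subunit the medians were 0.12 for genes with a bacterial homologue (17 of 30 positive) and 0.05 for mitochondria-specific genes (13 of 21 positive). None of these 4 groups held a called gene. The genotypes were without overlap in 26 of the 78 genes (33.3%), near the 36.0% of all tested genes. Etv3-/- cells were above in 18 of them (23.1%, against 16.7% of all tested genes) and below in 8 (10.3%, against 19.3%).

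The gene with the highest positive estimate as tested here was Mrpl52 (chromosome 14, 54426909 to 54429756, GRCm38), which encodes a mitochondria-specific protein of the large subunit. It had 2045, 1383 and 1918 normalized counts in Etv3-/- cells, against 859 and 1097 in Etv3+/+ cells. The groups did not overlap, yet its log2 fold change of 0.86 (95% interval 0.19 to 1.52) did not pass (limma adjusted p = 0.192). With a correction for GC content and transcript length Mrpl52 was at 0.68, below Mrpl47 at 0.81, and without Etv3+/+ replicate 1 it was at 0.68, below Mrps34 at 0.86. Mrpl16, a large subunit protein of bacterial descent, had 1118, 654 and 954 normalized counts in Etv3-/- cells, against 497 and 651 in Etv3+/+ cells. Its lowest Etv3-/- library nearly met the higher Etv3+/+ one, and the log2 fold change was 0.64 ± 0.36 (SE). Mrpl17, likewise of bacterial descent, had 3749, 3226 and 3744 normalized counts in Etv3-/- cells, against 2789 and 2125 in Etv3+/+ cells, a log2 fold change of 0.55 ± 0.23 (SE) that was 0.35 without Etv3+/+ replicate 2.

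In the small subunit, Mrps34, which encodes a mitochondria-specific protein, had 2065, 1731 and 2179 normalized counts in Etv3-/- cells, against 1612 and 1095 in Etv3+/+ cells. The log2 fold change was 0.58 ± 0.27 (SE), and 0.30 without Etv3+/+ replicate 2. Mrps34 overlaps Mapk8ip3 on the opposite strand, which had 10149 to 13406 normalized counts in Etv3-/- cells, against 8016 and 7454 in Etv3+/+ cells. These counts are not scaled by length, and the 2 genes cannot be told apart where strand was not used in counting. Mrps28, whose product is the mitochondrial counterpart of the bacterial S1 position, had 908, 965 and 961 normalized counts in Etv3-/- cells, against 687 and 605 in Etv3+/+ cells. The groups did not overlap, and the log2 fold change was 0.55 ± 0.29 (SE). In limma the adjusted p-values of Mrpl16, Mrpl17, Mrps34 and Mrps28 were 0.259 to 0.393.

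At the other end, Mrpl13 (chromosome 15, 55534094 to 55557748), a large subunit protein of bacterial descent, had 3584, 3068 and 4024 normalized counts in Etv3-/- cells, against 5397 and 6451 in Etv3+/+ cells. The gap between the groups exceeded the spread within either, giving -0.74 on the log2 scale (95% interval -1.24 to -0.23) and an adjusted p of 0.152 in limma. Mrpl13 overlaps Mtbp on the opposite strand, which had 447 to 804 normalized counts in Etv3-/- cells, against 483 and 630 in Etv3+/+ cells. Mrpl18, which encodes a large subunit protein of the family that binds 5S RNA in bacteria, had 2235, 2661 and 2576 normalized counts in Etv3-/- cells, against 3552 and 4211 in Etv3+/+ cells. Its log2 fold change was -0.64 ± 0.22 (SE). Mrpl18 overlaps the chaperonin gene Tcp1 on the opposite strand, which was at -0.02. Tcp1 had higher counts, 15917 to 16847 in Etv3-/- cells against 14591 and 19074 in Etv3+/+ cells, not scaled by length. As for Mrps34, such overlapping genes cannot be told apart where strand was not used in counting.

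Mrps27, a mitochondria-specific small subunit protein with pentatricopeptide repeats, had 1722, 2100 and 1591 normalized counts in Etv3-/- cells, against 3329 and 2365 in Etv3+/+ cells, a log2 fold change of -0.65 ± 0.26 (SE). All 3 Etv3-/- libraries were below both Etv3+/+ libraries, which themselves lay apart, and without Etv3+/+ replicate 1 the value was -0.40. Mrpl1, a large subunit protein of bacterial descent, had 1404, 1283 and 959 normalized counts in Etv3-/- cells, against 1688 and 2042 in Etv3+/+ cells, a log2 fold change of -0.63 ± 0.28 (SE). With the GC and length correction that of Mrpl1, a GC-poor transcript at 41.4%, was -0.04. Mrpl50, mitochondria-specific, had 1536, 1967 and 1103 normalized counts in Etv3-/- cells, against 1830 and 2210 in Etv3+/+ cells, and was the only one of the 6 lowest whose groups overlapped (log2 fold change -0.43 ± 0.30, SE). Its GC content is 42.3%, and with the same correction the value was 0.11. Without Etv3-/- replicate 3 it was -0.21. In limma the adjusted p-values of Mrpl18, Mrps27, Mrpl1 and Mrpl50 were 0.195 to 0.493.

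**Figure D3:**
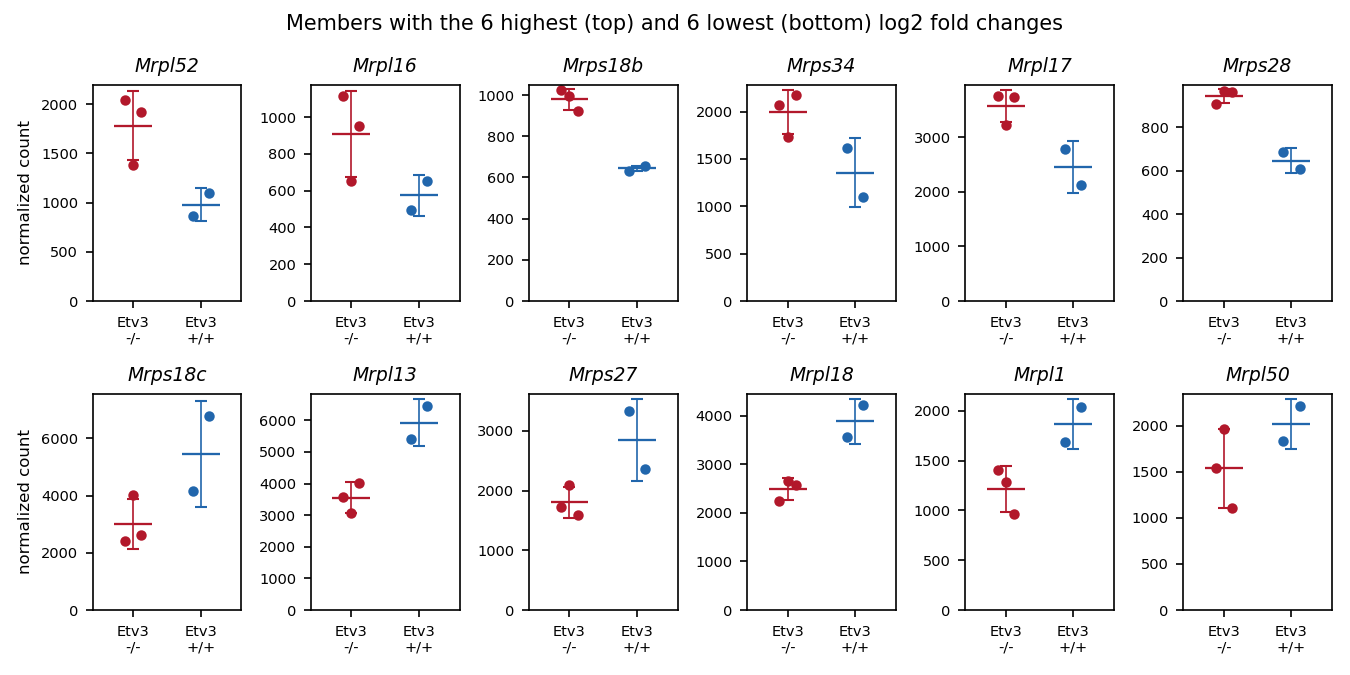
Normalized counts of the 12 mitochondrial ribosomal protein genes with the 6 highest and the 6 lowest log2 fold changes among those with a mean of 50 or more, in Etv3-/- (3 libraries, left) and Etv3+/+ cells (2 libraries, right), with means as horizontal lines and SD as error bars. Values of the genotypes do not overlap for 11 of the 12, Mrpl50 being the exception, and none of the 12 passed the test. The 12 were chosen by log2 fold change, so this count cannot show how far members separate. Of all members 33.3% were without overlap, beside 36.0% of all tested genes.

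Estimates of the 3 paralogues of bacterial S18 differed. In the groups by role above, Mrps18c was counted as having a bacterial homologue, but Mrps18a and Mrps18b as mitochondria-specific. Mrps18c, whose product holds the S18 position in the small subunit, had the lowest estimate of the 78 genes as tested here. It had 2396, 4021 and 2634 normalized counts in Etv3-/- cells, against 4145 and 6769 in Etv3+/+ cells, a log2 fold change of -0.85 (95% interval -1.58 to -0.12, limma adjusted p = 0.221). Etv3-/- replicate 2 nearly reached Etv3+/+ replicate 1, so the separation rested on a narrow margin. Without Etv3+/+ replicate 2 the value of Mrps18c was -0.50, and with the GC and length correction it was -0.53, above the -0.68 of Mrpl13. Mrps18b, whose product sits elsewhere in the small subunit, had 1023, 993 and 922 normalized counts in Etv3-/- cells, against 634 and 654 in Etv3+/+ cells, a log2 fold change of 0.60 (95% interval -0.05 to 1.26, limma adjusted p = 0.317). Mrps18a, of the large subunit, had 2189, 1812 and 2368 normalized counts in Etv3-/- cells, against 2262 and 1841 in Etv3+/+ cells, and its groups overlapped (log2 fold change 0.05, 95% interval -0.52 to 0.61, limma adjusted p = 0.941). Mrps18a overlaps Rsph9 and Mrps27 overlaps 6430562O15Rik on the opposite strand, at under 50 normalized counts in every library. Differences between the paralogues were not tested.

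Levels between genes were compared per kb, as the mean normalized count over the 5 libraries divided by the median length of the gene's coding transcripts. The median gene had 1620 per kb. Mrpl30 was highest at 9653 per kb, followed by Mrpl4 at 7432, Mrpl42 at 6453 and Mrps18c at 6259. Mrpl30 ranged over 8963 to 12036 per kb in Etv3-/- cells and 6228 and 10977 in Etv3+/+ cells, so it did not separate from Mrpl4, at 6797 to 8672 in Etv3-/- cells and 7506 and 5946 in Etv3+/+ cells, beyond the spread between libraries. The lowest were Mrps25 at 207 per kb, Mrpl47 at 153 and Mrpl53 at 27.9. Mrps25 had 1210, 1326 and 1613 normalized counts in Etv3-/- cells, against 1069 and 1080 in Etv3+/+ cells, with an annotated transcript of 6073 bases, and overlaps Nr2c2 (log2 fold change -0.43) on the opposite strand. Mrpl47 overlaps Actl6a (0.17) and Ndufb5 (-0.0032) there, both with higher normalized counts than Mrpl47, not scaled by length. Mrpl53 was low on both scales, at 18.3, 22.3 and 28.1 normalized counts in Etv3-/- cells, against 13.0 and 15.4 in Etv3+/+ cells. Mrpl53 overlaps Ccdc142os on the opposite strand, which had 30.1, 55.7 and 90.3 normalized counts in Etv3-/- cells, against 12.1 and 15.4 in Etv3+/+ cells. The Mrpl53 interval of -1.79 to 3.05 leaves the direction unresolved at this depth, while the next lowest member averaged 512 normalized counts.

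In the promoter windows of RefSeq (GRCm38.p6, 250 bases before to 50 after the annotated start), 69 of the 78 genes had an entry, with 75 windows. Because Etv3 encodes an ETS factor, the windows were searched on both strands for the ETS letters CCGGAAG, and also for the YY1 letters AAGATGGC, since YY1 is known for binding promoters of nuclear mitochondrial genes. NRF1, also known for this, was searched as GCGC and TGCGC separated by any 1 base. ETS letters were found in 34.7% of the members' windows, beside 16.8% of windows of all tested genes and 8.86% of all promoters in the table. YY1 letters were in 16.0%, 4.27% and 2.75% of the same sets, and NRF1 letters in 17.3%, 9.37% and 4.60%. A TATA box (letters TATAAA) was in 6.67%, 7.43% and 13.6%, and a CCAAT box (letters CCAAT) in 40.0%, 37.7% and 37.4%. The 26 members with ETS letters had a median log2 fold change of 0.14 (range -0.85 to 0.86, 19 positive) and the 43 without had 0.08 (range -0.63 to 0.64, 25 positive). The 13 members with NRF1 letters had a median of 0.02 (7 positive) and the 12 with YY1 letters 0.08 (8 positive). Members at both ends of the range thus carried the letters, and such a match is not a measured site.

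The windows of the S18 paralogues and of Mrpl52 are shown because they are the genes with the lowest, the highest and a middle estimate and all hold ETS letters. Capitals mark matches to the ETS or YY1 letters on either strand, and each window is given in the direction of its gene. They lie at chr17:46110754-46111053 (plus strand, Mrps18a), chr17:35916391-35916690 (minus strand, Mrps18b), chr5:100798509-100798808 (plus strand, Mrps18c) and chr14:54426659-54426958 (plus strand, Mrpl52).
Mrps18a: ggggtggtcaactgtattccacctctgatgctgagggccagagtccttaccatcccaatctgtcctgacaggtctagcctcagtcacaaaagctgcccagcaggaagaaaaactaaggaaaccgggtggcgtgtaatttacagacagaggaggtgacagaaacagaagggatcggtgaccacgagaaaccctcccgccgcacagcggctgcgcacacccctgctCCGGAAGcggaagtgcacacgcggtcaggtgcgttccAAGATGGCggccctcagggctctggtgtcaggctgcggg
Mrps18b: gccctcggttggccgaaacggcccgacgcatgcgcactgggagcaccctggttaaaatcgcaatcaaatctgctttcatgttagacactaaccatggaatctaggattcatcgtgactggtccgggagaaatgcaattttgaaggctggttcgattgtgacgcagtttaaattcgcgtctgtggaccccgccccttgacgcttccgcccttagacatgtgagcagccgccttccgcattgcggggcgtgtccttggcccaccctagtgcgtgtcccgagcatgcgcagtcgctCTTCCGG
Mrps18c: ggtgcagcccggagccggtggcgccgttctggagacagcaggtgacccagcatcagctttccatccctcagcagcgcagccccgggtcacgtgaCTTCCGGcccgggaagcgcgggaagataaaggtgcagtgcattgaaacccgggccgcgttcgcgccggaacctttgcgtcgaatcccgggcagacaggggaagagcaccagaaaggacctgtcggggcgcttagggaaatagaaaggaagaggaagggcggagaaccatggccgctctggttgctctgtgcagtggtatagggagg
Mrpl52: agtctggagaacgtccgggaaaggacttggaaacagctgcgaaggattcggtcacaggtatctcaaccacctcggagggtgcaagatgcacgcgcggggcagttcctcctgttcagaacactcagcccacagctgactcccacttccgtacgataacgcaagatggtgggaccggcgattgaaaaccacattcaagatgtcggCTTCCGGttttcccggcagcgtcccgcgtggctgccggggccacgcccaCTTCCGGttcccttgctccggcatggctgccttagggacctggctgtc
In Mrps18a the ETS letters begin 26 bases before the start and the YY1 letters 12 bases after it. In Mrpl52 the reverse complement of the ETS letters occurs at 47 bases before and at 3 bases after the start. In Mrps18b it lies 44 bases after the start, and in Mrps18c 156 bases before it. All these distances are from the RefSeq starts. In GENCODE M21 Mrps18b starts at 35916389, so its whole window lies upstream of that start. Mrps18c starts there at 100798627, upstream of its RefSeq start.

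A protein-coding gene started within 1000 bases upstream in the opposite direction for 18 of the 78 genes (23.1%), beside 10.2% of 12595 tested protein-coding genes. Of these neighbours 17 were tested and 0 were called in limma. Member and neighbour had log2 fold changes of the same sign in 8 of the 17 pairs. Mrps18b and its neighbour Ppp1r10 were at 0.60 and 0.65, and Mrps27 and Ptcd2 at -0.65 and -0.86, whereas Mrps18c and Helq were at -0.85 and 0.05 and Mrps34 and Eme2 at 0.58 and -0.68.

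The other parts of the mitochondrial translation machinery likewise held no called gene (limma, adjusted p under 0.05). Among 5 subunits without an Mrp symbol, Ptcd3, a small subunit protein with pentatricopeptide repeats, had 1852, 3214 and 1348 normalized counts in Etv3-/- cells, against 4124 and 5494 in Etv3+/+ cells. Its log2 fold change of -1.25 (limma adjusted p = 0.152) was larger in size than that of any of the 78 genes, and the groups did not overlap. Aurkaip1, another small subunit gene, was at 0.24. The 28 assembly and rRNA modification genes had a median of 0.28 (range -0.96 to 1.20), with the RNA helicase gene Dhx30 at 0.26 and the RNA-binding protein gene Grsf1 at -0.52. The 17 tested genes of translation factors and related proteins had a median of 0.06 (range -1.28 to 0.61). Of these Letm1, not itself a translation factor gene, was at 0.10 and the elongation factor gene Gfm1 at -0.04. The 20 mitochondrial aminoacyl-tRNA synthetase genes had a median of -0.04 (range -0.56 to 2.05), with Lars2 at 0.04 and Ears2 at -0.46.

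The RNAs that the mitochondrial ribosome contains or translates differed mainly by library. Mitochondrially encoded mRNAs took 1.99%, 2.89% and 0.985% of normalized counts in Etv3-/- cells, against 1.82% and 5.84% in Etv3+/+ cells. Etv3+/+ replicate 2 stood far above the other 4 libraries, and the groups overlapped. All 12 tested mRNAs had a negative log2 fold change (median -0.90), with 0 called and 0 at an unadjusted p under 0.05 in limma. mt-Co1, the most abundant, had 604246, 779334 and 265997 normalized counts in Etv3-/- cells, against 499046 and 1634445 in Etv3+/+ cells. Of the rRNAs, mt-Rnr2 was at -0.85 and mt-Rnr1 at -0.58 on the log2 scale, with overlapping groups.

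Beside the median of 0.12 for the mitochondrial ribosomal protein genes stand those of the respiratory chain and of the cytosolic ribosome, groups in which limma also called 0 genes. The 81 tested nuclear genes of the respiratory chain had a median log2 fold change of 0.18, with 54 positive (66.7%, beside 46.3% of all tested genes). Of them 29 (35.8%, beside 36.0%) were without overlap between the genotypes and 8 (9.88%, beside 18.0%) had an unadjusted p under 0.05. The 81 cytosolic ribosomal protein genes had a median of 0.51, with 75 positive (92.6%, beside 46.3% of all tested genes). Of these 41 (50.6%, beside 36.0%) were without overlap and 27 (33.3%, beside 18.0%) had an unadjusted p under 0.05. All 81 cytosolic genes together took 3.01%, 2.19% and 2.84% of normalized counts in Etv3-/- cells, against 1.55% and 2.05% in Etv3+/+ cells, without overlap. Of the cytosolic group Rpl4 was at 0.44 on the log2 scale, and of the respiratory chain the ATP synthase genes Atp5b and Atp5a1 were at 0.33 and 0.18. The difference between these groups of genes was not tested.

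**Figure D4:**
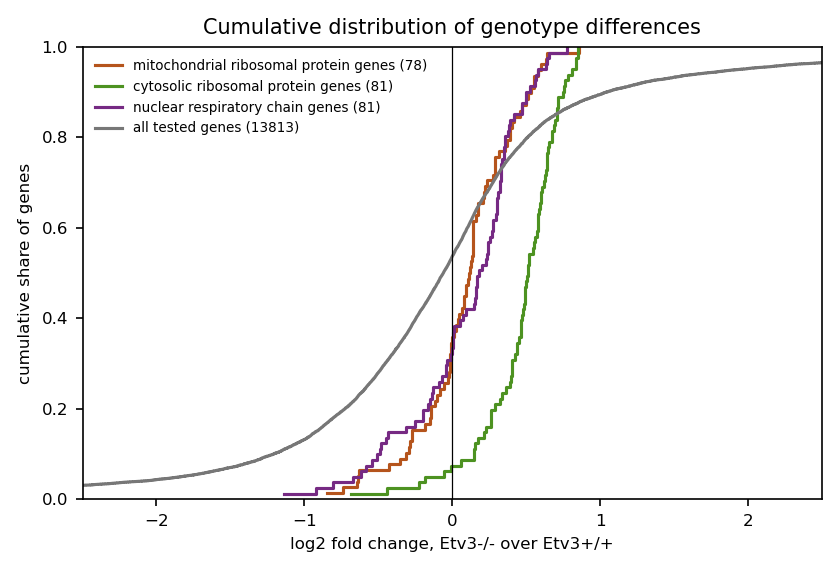
Cumulative share of genes (vertical axis) by log2 fold change, Etv3-/- over Etv3+/+ (horizontal axis), for 78 mitochondrial ribosomal protein genes, 81 cytosolic ribosomal protein genes, 81 nuclear respiratory chain genes and all 13813 tested genes. The curve of the mitochondrial ribosomal protein genes crosses the middle at 0.12, that of the cytosolic group at 0.51 and that of all tested genes at -0.06.

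**Figure D5:**
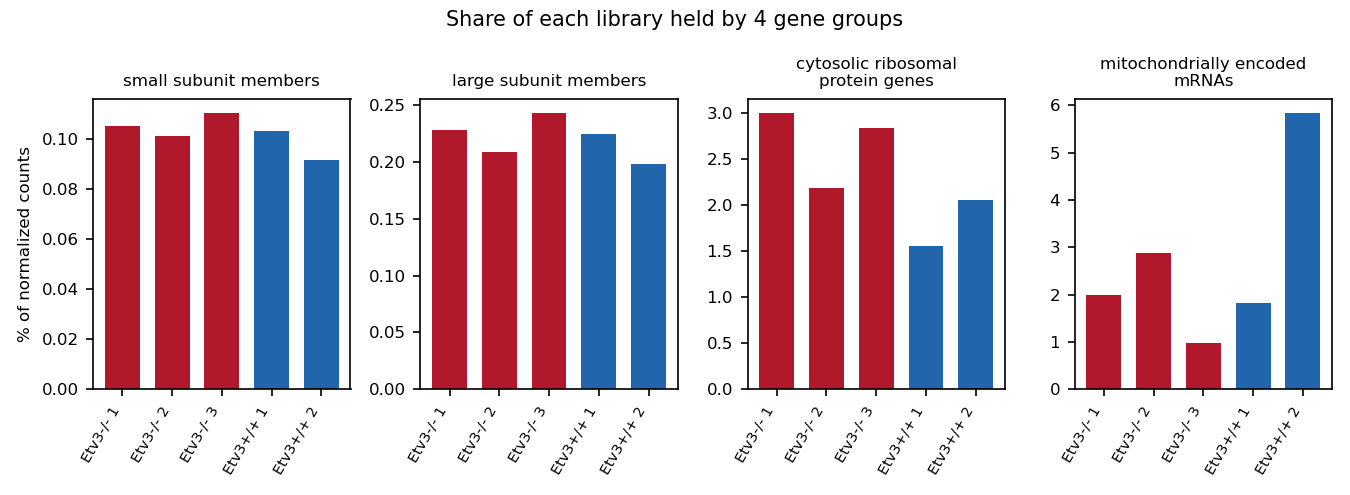
Percent of each library's normalized counts held by small subunit and large subunit members, cytosolic ribosomal protein genes and mitochondrially encoded mRNAs, with 1 bar a library and each panel on its own scale from 0. Member shares overlap between the genotypes, and the mRNA share of 5.84% in Etv3+/+ replicate 2 stands above the others.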

How the data were processed

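RNA-seq of 5 libraries was analysed from a table of normalized counts that the authors deposited, a signal scaled by 1 factor a library. Build mm10 and the tools DESeq2 1.26.0, STAR 2.7.3a, Subread 1.6.3, featureCounts and Trimmomatic 0.36 are named in the submitters' processing notes. The sources used here do not give their roles, the annotation or the strand setting. Per the labels' protocols, RNA was made into cDNA with a low-input SMART-Seq kit, so PCR copies are not told from separate molecules. A single read was worth 0.856 to 1.24 normalized counts, and reads recovered from this were whole to within 0.1 for 100% of values.

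Groups came from the labels. Genes reaching a normalized count of 10 in 2 or more libraries entered limma 3.58.1 (R 4.3.3, eBayes with trend) on log2(normalized count + 1), two-sided, with Benjamini-Hochberg adjustment over 13813 genes and a threshold of 0.05. edgeR 4.0.16 and DESeq2 1.42.0 ran on recovered reads as alternatives. Tested on simulated data (Etv3-/- against Etv3+/+, 13813 genes), limma recovered 11.1% of genes changed 2-fold, 59.9% changed 4-fold and 78.5% changed 8-fold. Lengths, GC content and positions came from GENCODE M21, on the assembly of mm10, matched by symbol for all 78 members, and for 98.5% of tested genes. Figures were drawn with matplotlib 3.10.9.

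Members, lists and tests were chosen with earlier results of these data known. Genes named were the 6 highest and 6 lowest log2 fold changes with a mean of 50 or more, the 4 highest and 3 lowest per kb and the Mrps18 paralogues. In each pathway list they were called genes or, with none, the 2 of highest mean, of which 1 is not reported here. Neighbouring and overlapping genes were named beside their member.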

Additional observations from a re-analysis of the deposited data

How the results depend on the processing

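Members called numbered 0 higher and 0 lower in the 11 alternatives with all libraries: other pseudocounts, filters and scaling, limma without trend, edgeR, DESeq2, the replicate block and a GC and length correction, alone or together. With a library left out members called were also 0, but limma then called only 0 to 80 of all genes, so this says nothing about stability. Where 1 Etv3+/+ library remains, the spread comes from Etv3-/- alone and is taken to hold for both genotypes. The lowest adjusted p of any member in them was 0.0528 (Mrpl13, DESeq2). The median log2 fold change of members ranged from 0.05 to 0.18. The share difference of 0.0238 percentage points was as large as the pooled SD between replicates of 0.0237. It ranged from 0.0046 to 0.043 with a library left out (lowest without Etv3+/+ replicate 2). With mitochondrially encoded genes left out of the total it was 0.0175. Among named members, values of Mrpl50 with the GC and length correction were 0.11 and, with the replicate block as well, 0.13. Mrpl30 ranged from -0.10 (without Etv3+/+ replicate 1) to 0.72 with a library left out. Mrpl42 was at -0.0077 with the replicate block and ranged from -0.077 to 0.15 with a library left out. Mrps18a was at -0.035 with the replicate block, -0.12 with the correction, -0.14 with both, and ranged from -0.10 to 0.20 with a library left out. The cause was not tested.

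Over all genes, 121 higher and 44 lower became 44 higher in limma without trend, 636 and 533 in DESeq2, and 266 and 132 with the correction. With a pseudocount of 5, a mean of 50 or more, or the replicate block, 70, 88 or 118 were lower. With a library left out, limma called 0 to 73 higher and 0 to 7 lower, so calls over all genes depend on every library. Without Etv3-/- replicate 1, the setting with 0, the lowest adjusted p of a member was 0.307 (limma). The deviations of libraries sharing a number correlated at -0.034 and 0.039, so the number was not taken as a pairing. Number 3 occurs in Etv3-/- alone, so that library does not enter the blocked difference. In simulation 11.1% of 2-fold changes placed in genes drawn from all tested genes were recovered. Recovery among members alone, whose median SE was 0.259 against 0.371 over all tested genes, was not simulated. Calls of 0 do not exclude 2-fold changes where the interval allows them.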

Other observations

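Lists of regulators of nuclear mitochondrial genes and of import and quality control genes held 0 called genes among 14 and 20 tested (limma, adjusted p under 0.05). An unadjusted p under 0.05 was found for 2 (14.3%) and 4 (20.0%), beside 18.0% of all tested genes. The median log2 fold change was 0.09 for the regulators (range -1.23 to 1.55) and 0.11 for import and quality control (range -1.28 to 0.82). Myc, a transcription factor known for raising ribosome and mitochondrial gene expression, was named after its values were seen. It had 957, 795 and 1250 normalized counts in Etv3-/- cells, against 294 and 383 in Etv3+/+ cells, a log2 fold change of 1.55 that did not pass (limma adjusted p = 0.0849). The others of highest mean were Mxi1 at -0.55 and Atf4 at 0.75, and, for import and quality control, the chaperone gene Hspa9 at 0.22 and the protease gene Yme1l1 at -1.28 on the log2 scale. Nrf1 and Gabpa, also named after their values were seen, were at 0.32 and 0.04. Among 19 genes of mitochondrial DNA transcription and maintenance 0 were called in limma, with a median of 0.07 (range -1.76 to 0.98). The genotypes did not overlap for 7 of them (36.8%, beside 36.0% of all tested genes). Polg was at 0.07 and Mtpap at 0.11.

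Genes named after their values were seen, for differences beyond 2-fold in other parts of the translation machinery, were Mars2, Guf1 and Ddx28. Mars2, the mitochondrial methionyl-tRNA synthetase gene, had 303, 248 and 386 normalized counts in Etv3-/- cells, against 53.1 and 102 in Etv3+/+ cells. Guf1, a translation factor gene, had 1193, 1344 and 697 in Etv3-/- cells, against 2266 and 2797 in Etv3+/+ cells. Ddx28, an assembly helicase gene, had 2051, 1606 and 2075 in Etv3-/- cells, against 815 and 1029 in Etv3+/+ cells. None passed (limma adjusted p = 0.115 to 0.123).

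The table also held 6 Mrp pseudogene rows that the symbol rule leaves out. The highest was Mrpl23-ps1, at 105, 79.3 and 92.1 normalized counts in Etv3-/- cells, against 47.5 and 75.3 in Etv3+/+ cells. Its parent Mrpl23 had 479, 559 and 553 in Etv3-/- cells, against 481 and 490 in Etv3+/+ cells, and reads that map to both are uncertain.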
